A study of Mus musculus with 8 samples.

Results

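The TNF superfamily ligands are secreted or membrane-bound cytokines that assemble as trimers. The rule for the 9 members described here is a list of names that uses no measured value, though it was drawn up with earlier results of these data known: Tnf, Lta, Ltb, Tnfsf9, Tnfsf10, Tnfsf12, Tnfsf13b, Tnfsf15 and Fasl. All 9 are among the 53715 genes of the deposited table, and 8 of them had at least 1 read in some library. RNA was measured in 8 libraries of polyadenylated RNA from mouse macrophages labelled Sting-/-, a knockout of the STING gene, which carry 1 of 4 labelled states, with 2 libraries each. The zfCTT, dCTT and mSTING groups stably express a STING protein and the no_transgene group expresses none. The series title gives the C-terminal tail of STING, here CTT, as the subject. The prefixes are not spelled out in the labels; from knowledge of the study, dCTT lacks the tail and zfCTT carries the tail of zebrafish STING in its place. All 4 groups, no_transgene included, received CMA, a small acridanone that activates mouse STING, at 500 µg/ml and were collected 4 h later. No library shows unstimulated cells, and the labels do not say whether a group is 1 clone or whether its libraries came from separate cultures. The p-values given here therefore refer to library-to-library spread alone, and that may be technical.

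STING is an adaptor of the endoplasmic reticulum that signals after cytosolic DNA is sensed. Its tail recruits the kinase TBK1 and the transcription factor IRF3, which turn on type I interferon, and STING signalling also activates NF-κB. TNF superfamily ligands bind receptors that act through TRAF adaptors or through death domains. Activated macrophages are a main source of TNF, whose gene is a classical NF-κB target. TNF mRNA is short-lived because AU-rich elements in its 3′ end are bound by proteins such as tristetraprolin.

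Tnf, Lta and Ltb stand side by side on GRCm38 chromosome 17, where Tnf and Lta are on the minus strand and Ltb is on the plus strand. Ltb (35194439 to 35196320) ends 3060 bases from Tnf (35199381 to 35202007), which lies 1157 bases from Lta (35203165 to 35205351), so that the trio spans 10913 bases. The sequences before their start sites are shown because these neighbours had their highest levels in the same libraries. Tnfsf9, Tnfsf10 and Tnfsf15, which lie elsewhere, had their highest levels in those libraries too. The sequences come from RefSeq on GRCm38.p6, where 7 of the 9 members had an entry, and no entry was used for Tnfsf9 or Tnfsf12. Capitals mark a match to TATAAA in Tnf and Lta and to the κB consensus, the element that NF-κB binds, in Ltb.
Tnf, chr17:35202008-35202257, minus strand: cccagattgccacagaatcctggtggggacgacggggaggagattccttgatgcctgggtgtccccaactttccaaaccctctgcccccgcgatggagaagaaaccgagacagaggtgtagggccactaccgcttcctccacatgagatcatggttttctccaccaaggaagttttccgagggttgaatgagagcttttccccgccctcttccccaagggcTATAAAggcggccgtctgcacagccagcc
Lta, chr17:35205352-35205601, minus strand: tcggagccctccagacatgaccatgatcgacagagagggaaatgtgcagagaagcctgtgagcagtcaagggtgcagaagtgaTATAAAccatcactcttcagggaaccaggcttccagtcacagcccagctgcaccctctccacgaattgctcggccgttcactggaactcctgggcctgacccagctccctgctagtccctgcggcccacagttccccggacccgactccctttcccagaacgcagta
Ltb, chr17:35194257-35194438, plus strand: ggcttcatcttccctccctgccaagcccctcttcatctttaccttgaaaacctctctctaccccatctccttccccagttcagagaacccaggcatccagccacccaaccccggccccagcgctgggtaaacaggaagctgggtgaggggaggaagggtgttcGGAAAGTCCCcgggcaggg

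Both strands of the 250 bases before each start were searched for the κB consensus, for the interferon response element core (2 GAAA blocks with 2 bases of any kind between them), for the AP-1 element TGANTCA and for TATAAA. The Ltb sequence is printed only up to the first annotated start of the gene. Its κB match lies on the minus strand, 87 to 78 bases before the RefSeq start, and was the only κB match among the 7 members. Of 27018 genes, 7.01% had a κB match in a window of this length and 13.0% had TATAAA. The TATAAA of Tnf lies 29 to 24 bases before the start and that of Lta 167 to 162 bases before. Tnfsf13b, which encodes the B cell survival factor BAFF, had the only interferon element core (3.04% of genes), 16 to 7 bases before the second of its RefSeq starts, and an AP-1 element (6.87% of genes) 127 to 121 bases before the same start. Only the first 84 of these 250 bases lie before the first annotated start of Tnfsf13b, so both matches are inside the gene. The window of its first RefSeq start held no match. No match says only that these letters are not in the window.

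The members also differ in AU-rich sequence after the stop codon, shown because it is where Tnf stands out as a sequence. Tnf held 8 ATTTA pentamers in 764 bases and 5 copies of the nonamer TTATTTATT. Of 20712 genes, 7.13% had 1 or more copies of that nonamer and 0.164% had at least as many as Tnf. Lta had 3 pentamers in 572 bases and 1 nonamer, whereas Ltb had neither in 156 bases. Tnfsf10 had 8 pentamers in 3998 bases, Tnfsf13b 6 in 3631, Tnfsf15 4 in 2505, Tnfsf9 2 in 253, and Tnfsf12 and Fasl 1 each, against a median of 1 per gene. Tnfsf13b was the remaining member with a nonamer. The densest stretches of 30 bases in Tnf and Lta are given with the pentamers in capitals.
Tnf: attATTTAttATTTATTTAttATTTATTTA
Lta: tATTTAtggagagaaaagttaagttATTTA

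Depth recovered from the RPKM values was 20.1 and 34.8 M reads in the zfCTT libraries and 27.7 to 171 M in the other 6. Macrophage identity was clear in every group, as 7 of 8 macrophage markers reached 1 RPKM (read number divided by gene length and by library size) in each; Mertk stayed below. Tmem173, the gene of STING, read 14.2 and 20.6 RPKM with zfCTT, 22.7 and 15.0 with dCTT, 10.6 and 22.2 with mSTING, and 3.23 and 2.42 without transgene. Reads of the gene were thus present without transgene, and the gene-level value does not show whether they fall in the part removed by the knockout. ZfCTT replicate 1 stood apart from the other 7 libraries on the first principal component, at −65.4 against −19.3 for zfCTT replicate 2 and −1.29 to 29.7 for the rest. No_transgene replicate 1 (59.7) and dCTT replicate 1 (30.7) stood apart on the second component, where the rest ran from −30.1 to 0.949. In RNA from a whole culture, more cells making a transcript and more transcript per cell cannot be told apart.

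**Figure D1:**
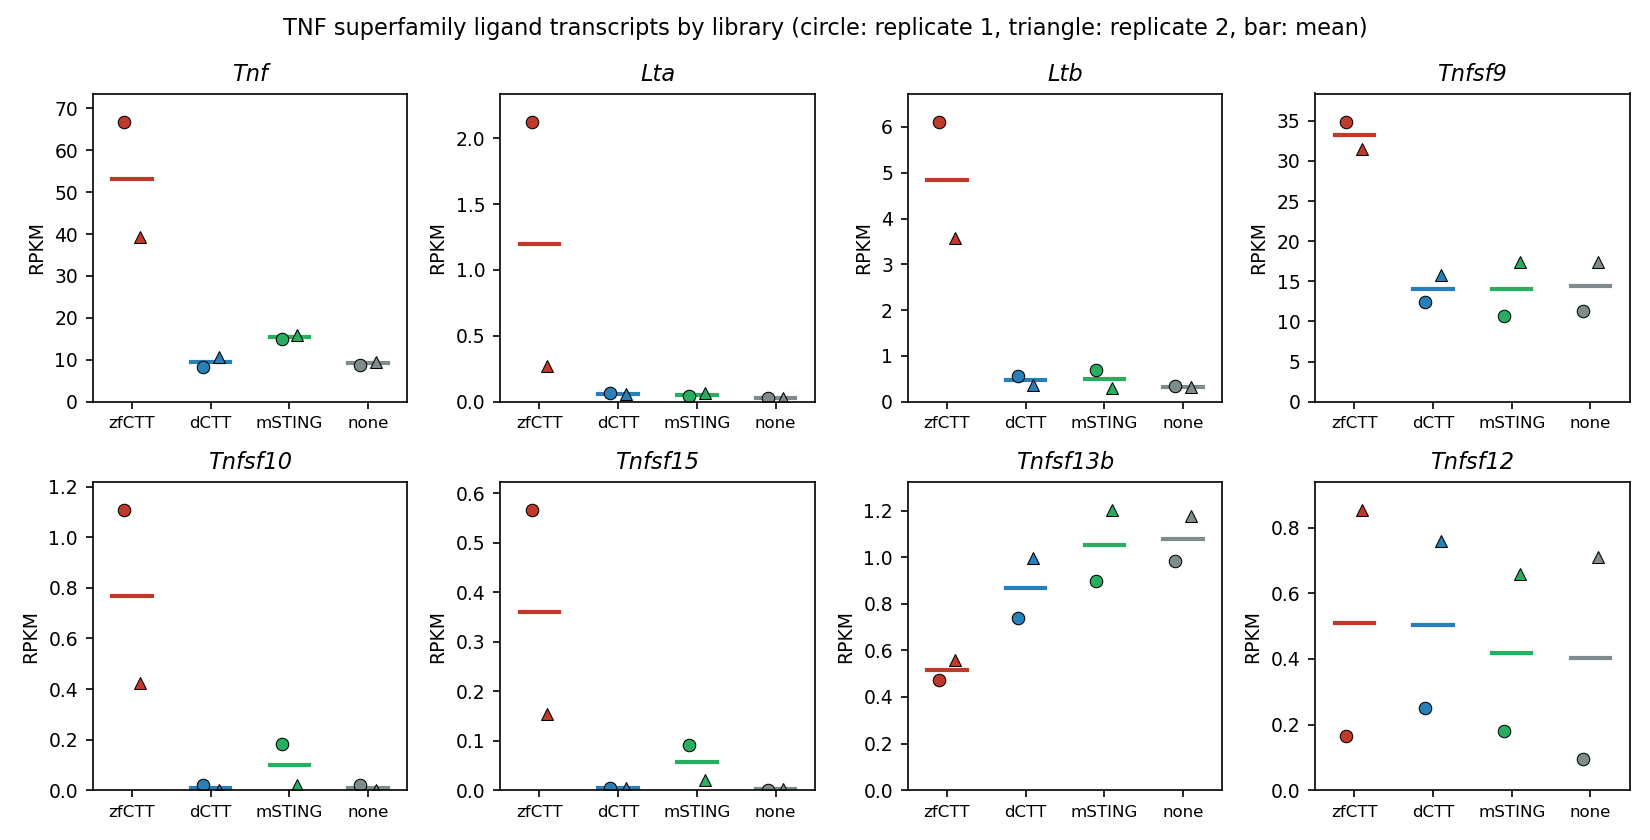
RPKM of the 8 members with a read, 1 panel per gene with its own axis from 0, for the zfCTT, dCTT, mSTING and no_transgene ("none") groups; circles are replicate 1, triangles replicate 2 and bars the mean of both. In 6 panels both zfCTT points lie above all others, in Tnfsf13b both lie below all others, and in Tnfsf12 replicate 1 is low in every group.

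Tnf, the prototype inflammatory cytokine of the family, had 66.8 and 39.3 RPKM with zfCTT, 8.26 and 10.5 with dCTT, 14.9 and 15.9 with mSTING, and 8.87 and 9.45 without transgene. Both zfCTT libraries were above the other 6, both mSTING libraries came next, and dCTT and no_transgene overlapped. Tnf rose in zfCTT over no_transgene by 2.36 ± 0.27 on the log2(RPKM + 1) scale (SE from limma, 2 libraries per group, adjusted p = 0.0203), 5.79-fold by mean RPKM. It rose by 2.34 ± 0.27 over dCTT (adjusted p = 0.0232). Over mSTING the difference was 1.67 ± 0.27, or 3.45-fold by mean RPKM, and did not pass (adjusted p = 0.131). Over no_transgene Tnf was past the threshold of 0.05 with all 8 libraries but not without zfCTT replicate 1 (1.99 ± 0.22, adjusted p = 0.0941), dCTT replicate 1 (0.0618) or 2 (0.0606), or no_transgene replicate 1 (0.164) or 2 (0.0701). The same 5 libraries ended the call over dCTT when left out, at adjusted p = 0.0585 to 0.187, while over mSTING it passed without zfCTT replicate 2 (2.05 ± 0.22, adjusted p = 0.0401).

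Ltb encodes lymphotoxin β, which joins lymphotoxin α in a membrane-bound trimer that signals through the LTβ receptor in lymphoid organs. It had 6.12 and 3.56 RPKM with zfCTT, against 0.569 and 0.366 with dCTT, 0.681 and 0.292 with mSTING, and 0.333 and 0.326 without transgene. Only the zfCTT libraries exceeded 1 RPKM, and the other 6 were below 0.7. Ltb rose by 2.10 ± 0.26 over no_transgene (SE, n = 2 per group; limma, adjusted p = 0.0244) and by 1.96 ± 0.26 over dCTT (0.0297), while the difference of 1.95 ± 0.26 from mSTING did not pass (0.0793). By mean RPKM these are 14.7-fold, 10.4-fold and 9.95-fold, since adding 1 to low values shrinks the log2 difference. Ltb passed the filter on low values only through the zfCTT libraries and so had to differ in their favour. Over no_transgene the call was lost without zfCTT replicate 1 (1.78 ± 0.24, adjusted p = 0.120), dCTT replicate 1 (0.0675) or 2 (0.0668), or no_transgene replicate 1 (0.178) or 2 (0.0777). Over dCTT the same 5 ended it, at 0.0679 to 0.262, and over mSTING it passed without zfCTT replicate 2 (2.27 ± 0.24, adjusted p = 0.0358).

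Lta, the gene of lymphotoxin α, a secreted ligand of the TNF receptors and the partner of lymphotoxin β, stayed below the filter of 1 RPKM in 2 libraries and has no test. It had 59 and 13 reads with zfCTT, 5 and 14 with dCTT, 5 and 8 with mSTING, and 1 and 4 without transgene. In RPKM these are 2.13 and 0.270 with zfCTT, against 0.0261 to 0.0656 in the other 6 libraries. The zfCTT libraries differed from each other 7.88-fold, yet the lower of them was above all 6. Pooled over both libraries and scaled to depth, Lta was 33.8 times as high with zfCTT as without transgene (95% counting interval 13.9 to 107), 17.8 times mSTING (9.78 to 35.0) and 15.7 times dCTT (9.36 to 27.6). These intervals cover counting error only and not the spread between libraries. By mean RPKM the ratios were 43.9, 22.5 and 19.3 in the same order.

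Lymphotoxin genes are best known from T and B cells, so the markers of those cells stand beside them here. The summed RPKM of 7 T cell markers was 2.74 to 4.49 with zfCTT, 0.958 to 0.960 with dCTT, 1.52 to 2.17 with mSTING and 0.866 to 1.20 without transgene. Of these markers, Cd3e and Cd8a were at 0 in all 8 libraries. Cd3d and Cd3g had at most 1 read in any library, and Cd4 at most 9. The sum lay almost wholly in Cd5 and Lck. Cd5, a surface receptor, was at 2.68 and 0.903 RPKM with zfCTT against 0.141 to 0.488 in the other 6 libraries. Lck, a Src-family kinase, read 1.80 and 1.83 with zfCTT against 0.480 to 1.67. The 5 B cell markers summed to at most 0.178 RPKM in any library, and the 5 NK cell markers to at most 0.0609, with 0 in both zfCTT libraries. The part of Cd5 and Lck in the lymphotoxin values was not tested.

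None of the genes named here on either side of the trio had both zfCTT libraries above all others. Lst1, 5999 bases beyond Ltb, had 20.5 and 11.6 RPKM with zfCTT, 10.6 and 8.93 with dCTT, 10.3 and 6.04 with mSTING, and 14.9 and 7.91 without transgene, so that both zfCTT libraries were above both dCTT and both mSTING libraries and overlapped no_transgene. Aif1, 18370 bases beyond Ltb, had 3.03 and 2.81 RPKM with zfCTT, 2.36 and 1.87 with dCTT, 5.75 and 1.22 with mSTING, and 3.51 and 1.54 without transgene, and its zfCTT libraries were above those of dCTT only. Nfkbil1, 14823 bases beyond Lta, had 28.2 and 30.3 RPKM with zfCTT, 22.0 and 29.97 with dCTT, 35.5 and 27.9 with mSTING, and 18.6 and 28.6 without transgene, and zfCTT overlapped every other group. Gm16181, 15482 bases beyond Lta, had 14.7 and 16.9 RPKM with zfCTT and 11.4 and 16.1 with dCTT. It had 14.3 and 15.0 with mSTING and 11.1 and 17.3 without transgene, and zfCTT overlapped every other group. Of genes with a read, 14.5% had both zfCTT libraries above both dCTT libraries and 17.7% above both mSTING libraries.

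Tnfsf9 encodes the 4-1BB ligand, a co-stimulatory signal that antigen-presenting cells give to T cells, and lies on the same chromosome (57105325 to 57107757, plus strand). It had 34.9 and 31.5 RPKM with zfCTT, 12.4 and 15.8 with dCTT, 10.7 and 17.4 with mSTING, and 11.3 and 17.5 without transgene. The zfCTT libraries were close to each other and above the other 6, which overlapped across groups. With zfCTT the mean was 33.2 ± 2.41 RPKM (SD, n = 2), below the 53.1 ± 19.5 of Tnf, but without transgene it was 14.4 ± 4.36, above the 9.16 ± 0.415 of Tnf. The difference over no_transgene was 1.18 ± 0.30 on the log2 scale (SE; limma, adjusted p = 0.147), that over mSTING 1.22 ± 0.30 (0.322) and that over dCTT 1.19 ± 0.30 (0.151), and none passed. Its exons share 192 bases, 14.9% of their length, with the antisense lincRNA Gm11110, and reads of the 2 cannot be told apart where the strand setting is unknown. Gm11110 itself read 0.650 to 2.26 RPKM.

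**Figure D2:**
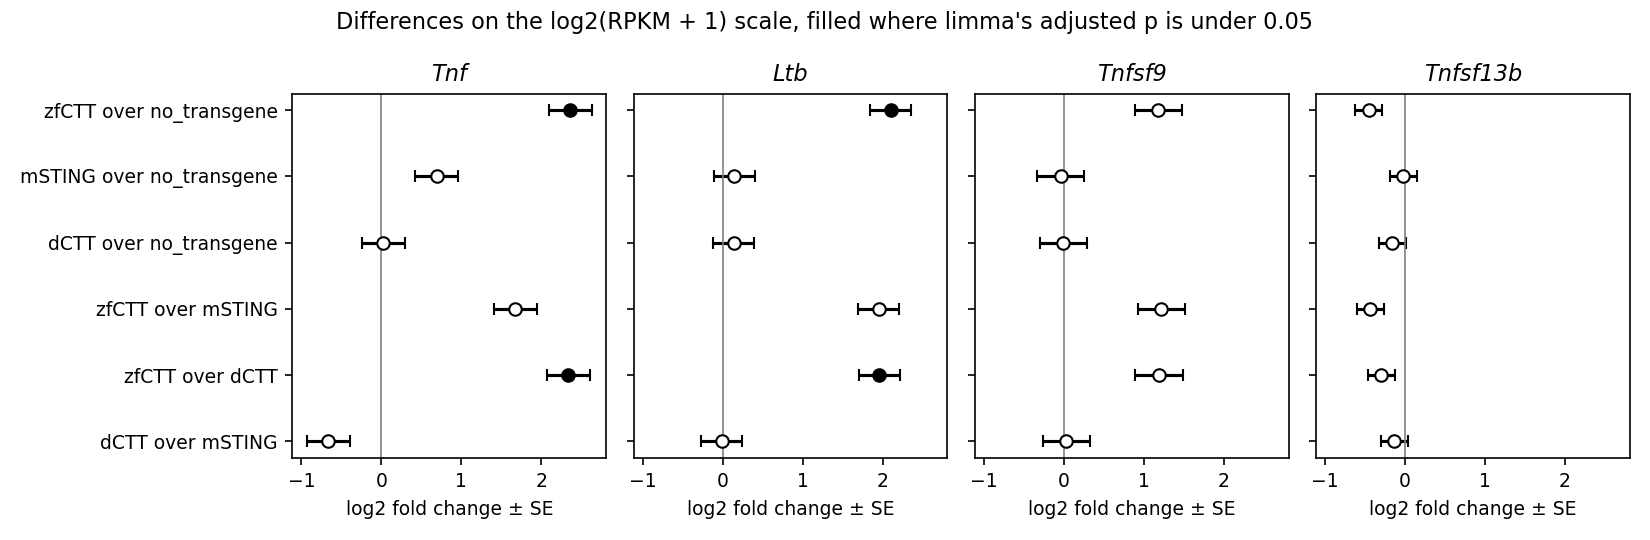
Log2 fold change with its SE for the 4 members that passed the filter on low values, in 6 comparisons, on the log2(RPKM + 1) scale; filled points have an adjusted p under 0.05 over all tested genes. Tnf and Ltb are filled in zfCTT over no_transgene and over dCTT, Tnfsf9 is near 1.2 in each zfCTT comparison and open, and Tnfsf13b lies left of 0 in all 6.

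Tnfsf10 encodes TRAIL, a death ligand and interferon-induced gene (chromosome 3, 27317028 to 27342427, plus strand). It had 117 and 78 reads with zfCTT, 6 and 0 with dCTT, 84 and 9 with mSTING, and 3 and 0 without transgene. That is 1.11 and 0.426 RPKM with zfCTT, at most 0.0205 with dCTT, 0.181 and 0.0194 with mSTING, and at most 0.0205 without transgene. The zfCTT libraries were above the other 6, mSTING replicate 1 was next, and mSTING replicate 2 fell among the dCTT and no_transgene libraries. The pooled rate with zfCTT was 153 times that without transgene (95% counting interval 51.5 to 747), 135 times dCTT (60.7 to 371) and 6.74 times mSTING (5.24 to 8.72). By mean RPKM, which weights both libraries alike, these ratios were 74.7, 74.9 and 7.65. All reads without transgene and with dCTT came from replicate 1, the shallower library, while pooling weights libraries by depth. With mSTING the pooled rate was 22.7 times that without transgene (7.52 to 112), or 9.75 times by mean RPKM. Of the 93 mSTING reads, 84 came from replicate 1.

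Tnfsf15 encodes TL1A, a T cell co-stimulator that binds death receptor 3 (chromosome 4, 63727084 to 63745113, minus strand). It had 38 and 18 reads with zfCTT, 1 and 2 with dCTT, 27 and 6 with mSTING, and 0 and 1 without transgene. In RPKM both zfCTT libraries (0.566 and 0.155) were above both mSTING libraries (0.0915 and 0.0203). Both mSTING libraries were above the dCTT and no_transgene libraries, none of which exceeded 0.00537. No_transgene replicate 1 had 0 reads, though, and 3 reads there would be 0.0323 RPKM, above mSTING replicate 2. The pooled rate was 132 times as high with zfCTT as without transgene (95% counting interval 22.7 to 5291), 77.3 times dCTT (25.1 to 386) and 5.45 times mSTING (3.49 to 8.66). The width of the first interval reflects the single read without transgene. By mean RPKM the ratios were 244, 81.4 and 6.44 in the same order.

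**Figure D3:**
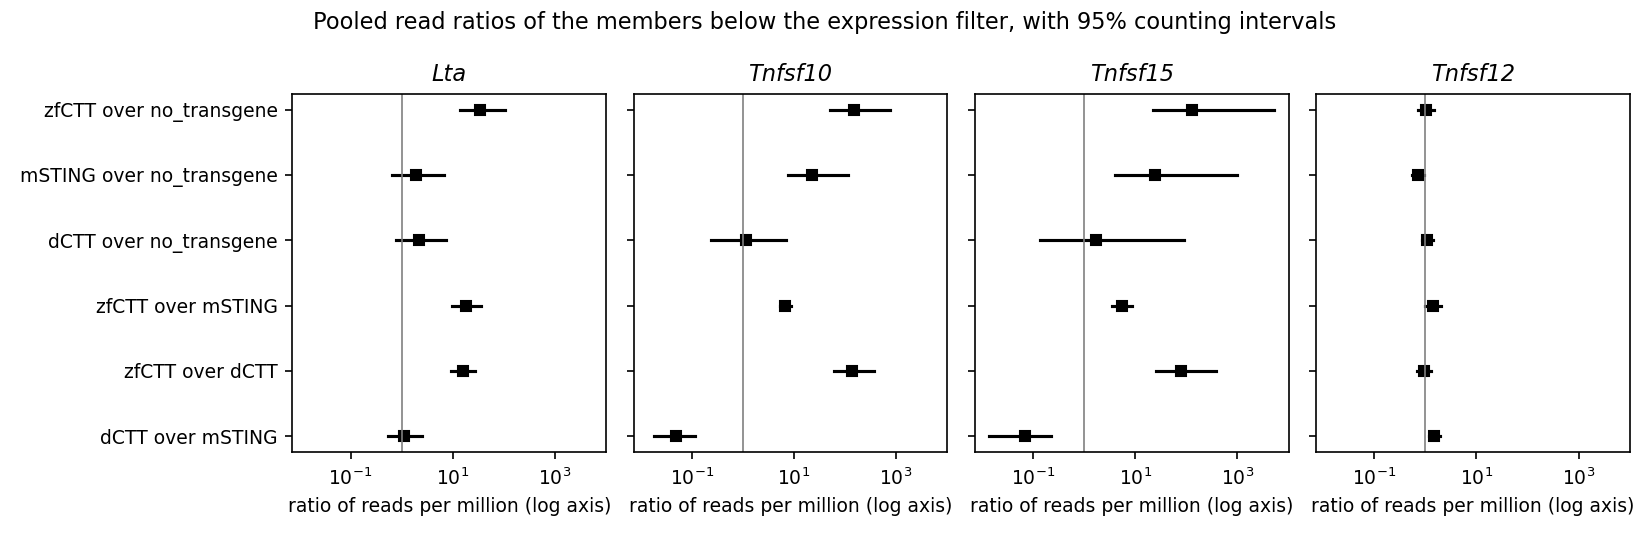
Ratios of pooled reads scaled to depth, on a log axis, for the 4 members below the filter on low values that had reads; squares are the ratio and lines its 95% counting interval, which leaves out the spread between libraries. Lta, Tnfsf10 and Tnfsf15 lie right of 1 in every zfCTT comparison, Tnfsf10 and Tnfsf15 also in mSTING over no_transgene, and Tnfsf12 lies between 0.725 and 1.51.

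Without the filter, where 31027 genes enter the fit, Lta, Tnfsf10 and Tnfsf15 differed in zfCTT over no_transgene by 0.96 ± 0.40, 0.78 ± 0.19 and 0.43 ± 0.14 on the log2(RPKM + 1) scale (limma, adjusted p = 0.476, 0.230 and 0.360). None of the 8 members with a read was called in that fit in any comparison.

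Tnfsf13b encodes BAFF, the survival factor of B cells that myeloid cells secrete (chromosome 8, 10006467 to 10039072, plus strand). It was the member with both zfCTT libraries below the other 6: 0.472 and 0.561 RPKM with zfCTT, 0.740 and 0.995 with dCTT, 0.899 and 1.20 with mSTING, and 0.982 and 1.18 without transgene. By mean RPKM the zfCTT level was 0.479 of no_transgene, 0.492 of mSTING and 0.595 of dCTT, and it did not pass the test in any of these (limma, adjusted p = 0.328, 0.443 and 0.533). It passed the filter on low values through mSTING replicate 2 and no_transgene replicate 2 alone. Of the 31027 genes with a read, 17.1% had both zfCTT libraries below both no_transgene libraries, 18% below both mSTING libraries and 20.9% below both dCTT libraries.

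Tnfsf12 encodes TWEAK, which signals through the receptor Fn14 in tissue repair (chromosome 11, 69686250 to 69695849, minus strand). Its level followed the replicate number more than the transgene: replicate 1 read 0.0952 to 0.249 RPKM over the 4 groups, and replicate 2 read 0.659 to 0.854. Every group overlapped every other. Its pooled read ratios ran from 0.725 in mSTING over no_transgene (95% counting interval 0.553 to 0.9498) to 1.51 in dCTT over mSTING (1.20 to 1.92), and with 1.43 in zfCTT over mSTING (1.01 to 2.02) these are the 3 of 6 whose intervals leave out 1. By mean RPKM these ratios were 1.04, 1.20 and 1.21. Pooling weights libraries by depth, which was 88.1 and 88.2 M in mSTING replicates 1 and 2. It was 27.7 and 101 M in no_transgene and 55.7 and 171 M in dCTT. The pooled ratios of Tnfsf12 thus mix the replicate difference with depth, and no group difference is read from them. Tnfsf12 shares 731 exonic bases, 48.3% of its length, with Tnfsfm13, a read-through gene on the same strand, so reads could be assigned to either. Tnfsfm13 was also lower in replicate 1 (0.258 to 0.354) than in replicate 2 (0.568 to 0.797), whereas Tnfsf13, the other gene of the read-through, overlapped between replicates (0.396 to 0.636 and 0.423 to 0.598). What the replicate number stands for is not in the labels, and its part was not tested.

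Fasl, the death ligand of cytotoxic lymphocytes (chromosome 1, 161780689 to 161788495, minus strand), had 0 reads in all 8 libraries. A count of 0 allows up to 3 reads, which correspond to 0.0772 RPKM in the shallowest library and 0.00904 RPKM in the deepest.

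Counted over members, 6 of the 8 with a read had both zfCTT libraries above both no_transgene libraries: Tnf, Lta, Ltb, Tnfsf9, Tnfsf10 and Tnfsf15. Of the 31027 genes with a read, 13% did so. The same 6 were above mSTING, where 17.7% of genes were, and above dCTT, where 14.5% were. The 3 comparisons share the zfCTT libraries and are not independent. Of the 4 members tested, 2 rose over no_transgene, where 0.928% of 13475 tested genes rose and 0.156% fell, and 2 rose over dCTT, where 0.913% rose and 0.171% fell. These were Tnf and Ltb; the filter fixed the direction of Ltb, so the count is a description and nothing is read from it against those shares. Over mSTING 0 passed by limma, where 0.111% of genes rose and 0.00742% fell. All 4 members had an unadjusted p under 0.05 there, as had 11% of genes, and 0 passed with voom on recovered reads. With the replicate number as a block, 1 member, Ltb, passed over mSTING (adjusted p = 0.0314), and among protein-coding genes alone 2 did, Tnf at 0.0371 and Ltb at 0.0150. In these 2 fits 38 of 13475 genes and 54 of 9449 protein-coding genes rose over mSTING.

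With mSTING, 0 of 4 tested members were called over no_transgene by limma or by voom, and 1, Tnf, had an unadjusted p under 0.05, as had 3.47% of tested genes; 0% of all genes were called. Tnf averaged 15.4 ± 0.683 RPKM with mSTING and 9.16 ± 0.415 without transgene (SD, n = 2 each), a ratio of 1.68. Both mSTING libraries were above both no_transgene libraries for Tnf, Lta and Tnfsf15, 3 of 8 members, against 11.8% of genes with a read. The Lta rate rests on 13 reads against 5, and its ratio of 1.90 has a counting interval that includes 1 (0.636 to 6.81). For Tnfsf15, 27 of the 33 mSTING reads came from replicate 1, and replicate 2 read 0.0203 RPKM. No_transgene replicate 1 had 0 reads, and 3 reads there would be 0.0323 RPKM. The order of these libraries is thus not settled for Tnfsf15. Ltb, Tnfsf9, Tnfsf10, Tnfsf12 and Tnfsf13b overlapped between these groups. The pooled ratio of Ltb was 1.49, with a counting interval that leaves out 1 (1.09 to 2.04) but covers counting error only.

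With dCTT, 0 of 4 tested members were called over no_transgene by limma or by voom and 0 had an unadjusted p under 0.05, as had 0.267% of tested genes; 0% of all genes were called. Both dCTT libraries were above both no_transgene libraries for Lta, Ltb and Tnfsf15, 3 of 8 members, against 8.51% of genes with a read. Their pooled ratios of 2.16 (95% counting interval 0.779 to 7.39), 1.27 (0.938 to 1.73) and 1.70 (0.137 to 89.4) all have intervals that include 1. For these 3 members no difference was detectable at this depth. The intervals of Tnf (ratio 1.07, 1.01 to 1.13) and Tnfsf13b (0.823, 0.759 to 0.893) leave out 1 but cover counting error only. The libraries of both genes overlapped between dCTT and no_transgene. Set against mSTING, dCTT also had 0 members called by limma or by voom, with 1, Tnf, at an unadjusted p under 0.05 (2.49% of tested genes), and 0% of all genes called. Tnf and Tnfsf15 were lower in both dCTT libraries than in both mSTING libraries, 2 of 8 members, where 10.1% of genes were. Tnfsf10 had 6 reads with dCTT and 93 with mSTING, a pooled rate ratio of 0.0501 (95% counting interval 0.0179 to 0.113), although the libraries overlapped. By mean RPKM that ratio was 0.102. A p that misses the threshold does not show that groups are alike.

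Among 9 other ligands of the superfamily, 6 had a read and none passed the filter on low values. Tnfsf13 (APRIL, another B cell factor) read 0.396 to 0.636 RPKM and Tnfsf14 (LIGHT, a ligand of the LTβ receptor) 0.146 to 0.563. Cd70, the ligand of CD27, was chosen after its values were seen; it read 0.178 and 0.0338 RPKM with zfCTT and 0 in the other 6 libraries, and lies 38239 bases from Tnfsf9. These values are near the floor, where a count of 0 allows up to 3 reads, and Cd70 was not tested. They do not show that it is present with zfCTT alone.

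Of 28 receptors of the superfamily, 11 were tested, and 1 rose and 0 fell in zfCTT over no_transgene and over dCTT. Of all tested genes, 0.928% rose and 0.156% fell over no_transgene, and 0.913% rose and 0.171% fell over dCTT. Cd40, a co-stimulatory receptor of antigen-presenting cells, had 38.2 and 17.3 RPKM with zfCTT, 1.11 and 0.851 with dCTT, 5.66 and 1.33 with mSTING, and 1.24 and 0.833 without transgene. It rose by 3.72 ± 0.54 over no_transgene (SE, n = 2 per group; limma, adjusted p = 0.0433) and by 3.76 ± 0.54 over dCTT (0.0404). The median log2 fold change of the 11 over no_transgene was −0.13, beside −0.04 over all tested genes. In the other 4 comparisons 0 receptors passed, and the most abundant were Ltbr, at 26.5 to 60.6 RPKM over the 8 libraries, and Tnfrsf1a, the main TNF receptor, at 26.1 to 45.2. Both zfCTT libraries of Ltbr (mean 34.2) were below both mSTING (57.8) and both dCTT libraries (55.8), and overlapped no_transgene (47.7). Those of Tnfrsf1a (32.6) were below dCTT (42.2) only. Of genes with a read, 18% were below mSTING and 20.9% below dCTT in this way.

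Other receptors that bind the members were looked at after their values were seen. Tnfrsf9, the 4-1BB receptor, read 0.770 and 0.380 RPKM with zfCTT and 0.0396 to 0.0542 in the other 6 libraries. Fas, the receptor of Fas ligand, read 1.47 and 0.654 with zfCTT and 0.0486 to 0.260 in the other 6. Tnfrsf13b, which encodes TACI, a receptor of BAFF, read 2.198 and 3.28 with zfCTT and 4.24 to 6.42 in the other 6. It did not pass in zfCTT over no_transgene (limma, adjusted p = 0.182). Tnfrsf12a, the TWEAK receptor Fn14, read 19.9 and 26.8 with zfCTT, 22.6 and 30.1 with dCTT, 29.5 and 40.6 with mSTING, and 19.0 and 31.3 without transgene. Its zfCTT libraries were below those of mSTING and overlapped the other groups. Tnfrsf10b, the TRAIL receptor, read 0.353 to 0.591, with zfCTT inside the range of the others. Tnfrsf1b, another TNF receptor, read 8.97 and 14.3 with zfCTT and 7.68 to 10.9 in the other 6, and Tnfrsf14, a receptor of LIGHT and lymphotoxin α, read 7.42 and 6.04 with zfCTT and 2.86 to 5.59 in the other 6; neither passed in any comparison. Tnfrsf13c and Tnfrsf17, which also bind BAFF, did not exceed 0.0441. Tnfrsf25, the TL1A receptor, did not exceed 0.0158 in any library.

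Downstream of the receptors, 10 of 12 receptor-proximal signalling genes were tested. Traf1, an adaptor of TNF receptors, rose in zfCTT over no_transgene by 3.48 ± 0.54 (limma, adjusted p = 0.0459), with 21.8 and 5.51 RPKM in zfCTT and 0.0736 and 0.106 in no_transgene, and 0 fell. Of the other 6 libraries only mSTING replicate 1 exceeded 1 RPKM, so Traf1 could pass the filter only with the help of zfCTT. Of 8 genes of ligand processing and release, 6 were tested and 1 rose in that comparison and 0 fell. Beside the counts of both lists, 0.928% of all tested genes rose there and 0.156% fell. Rhbdf2, which encodes iRhom2, the partner that carries the TNF-shedding protease ADAM17 to the surface, rose by 1.85 ± 0.27 (adjusted p = 0.0438), with 30.01 and 19.1 RPKM in zfCTT and 4.99 and 6.99 in no_transgene. Adam17 itself read 18.7 and 13.6 RPKM with zfCTT and 7.80 and 8.64 without transgene and did not pass (adjusted p = 0.114). In the other 5 comparisons 0 genes of either list passed. The Cd40, Traf1 and Rhbdf2 calls over no_transgene were lost without zfCTT replicate 1, either dCTT library or either no_transgene library, and those of Traf1 and Rhbdf2 also without either mSTING library, at adjusted p = 0.0574 to 0.256. Over dCTT, Cd40 was lost without the same 5 libraries, at 0.0801 to 0.275. By voom on recovered reads the 3 calls over no_transgene were also lost, at adjusted p = 0.0627 for Cd40, 0.0771 for Traf1 and 0.0503 for Rhbdf2. Without the filter on low values they were lost at 0.127, 0.141 and 0.115 in the same order, and Cd40 over dCTT at 0.133, whereas that call held by voom (0.0345).

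**Figure D4:**
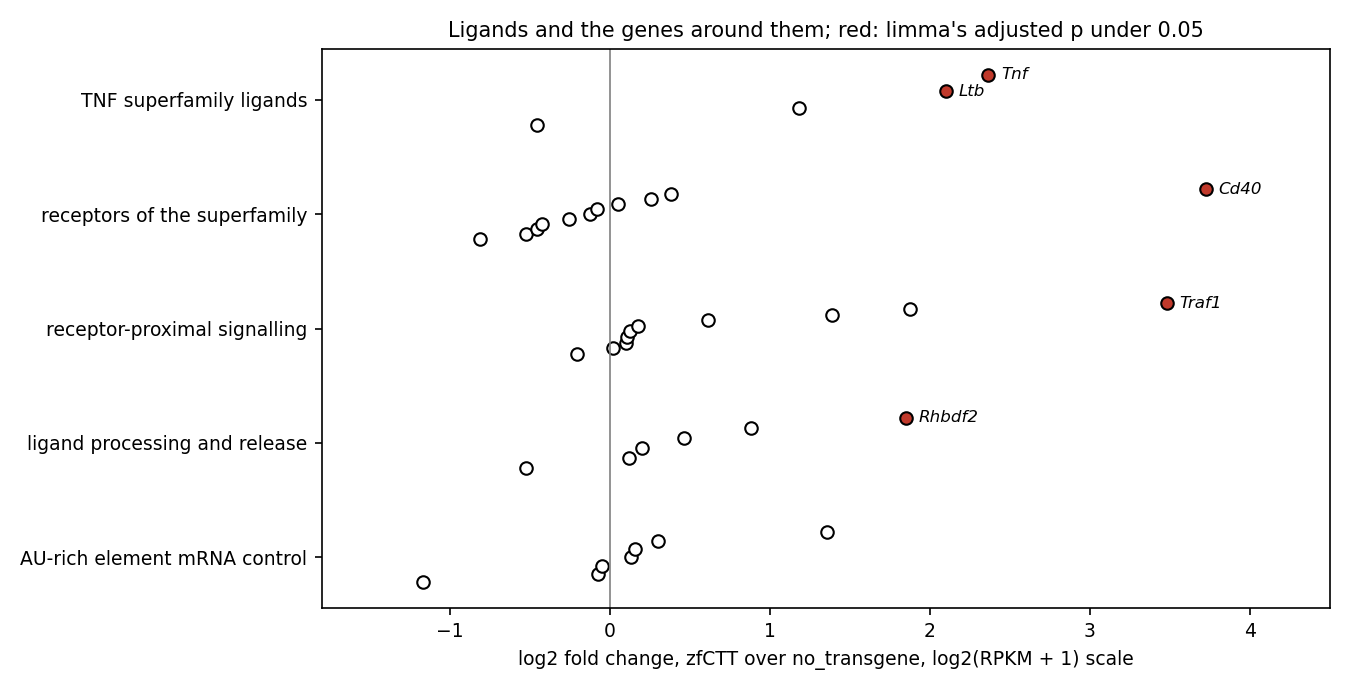
Log2 fold change in zfCTT over no_transgene, on the log2(RPKM + 1) scale, for each tested gene of the ligands and of 4 related lists; red points have an adjusted p under 0.05 over all tested genes and are named. Tnf and Ltb, Cd40, Traf1 and Rhbdf2 are red, most receptors lie within 1 of 0, and no gene of the AU-rich control list is red.

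Of 9 genes for proteins that act on AU-rich mRNAs, 7 were tested and 0 were called in any of the 6 comparisons by limma. The most abundant were Khsrp, a decay factor, at 87.0 to 106 RPKM, and Zfp36l2, a relative of tristetraprolin, at 19.8 and 46.8 with zfCTT and 51.6 to 93.2 in the other 6 libraries. Zfp36, the gene of tristetraprolin itself, was chosen after its values were seen; it read 61.6 and 81.1 RPKM with zfCTT, 16.6 and 32.4 with dCTT, 32.1 and 36.7 with mSTING, and 19.7 and 36.8 without transgene (1.36 ± 0.40 for zfCTT over no_transgene, adjusted p = 0.205).

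The protein-coding genes whose log2 values over the 8 libraries were most like those of Tnf, by Pearson correlation among 9448 genes, were Maff (r = 0.994), Flrt2 (0.993) and Rab20 (0.989). Rab20, a small GTPase, read 53.2 and 35.2 RPKM with zfCTT, 9.14 and 11.2 with dCTT, 13.8 and 12.7 with mSTING, and 9.27 and 11.5 without transgene, levels close to those of Tnf. For Tnfsf9 the nearest were Zdhhc5 (0.994), Wsb2 (0.984) and Arid5b (0.982). Flrt2 (2.07 and 1.39 RPKM with zfCTT) and Arid5b (1.46 and 1.15) reached 1 RPKM in the zfCTT libraries alone. The filter on low values thus admitted both only through the group where Tnf and Tnfsf9 are high, which favours a high r. The values share libraries and depths, and the ranking is a description.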

How the data were processed

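The authors deposited 1 table of RPKM for 53715 genes in 8 libraries. Per the submitters' processing notes, the tools include cutadapt 1.16 and HISAT2 2.1.0, with builds GRCm38 and mm10. Counting tool, annotation and strandedness were not given in the sources used here. Symbols matched 53620 identifiers. Multiplied by GENCODE M21 exon length, 95.0% to 95.6% of nonzero RPKM per library were whole reads (tolerance 0.05), which gives the depths. Tnfsf9 did not come out whole, so no reads are given for it. In the fit by voom it entered with its recovered values rounded to whole reads.

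The 13475 genes with at least 1 RPKM in at least 2 libraries were tested by limma (version 3.58.1, R 4.3.3) on log2(RPKM + 1). The fit was 1 model with a mean per group and 4 residual degrees of freedom, two-sided, with Benjamini-Hochberg adjustment within each of 6 comparisons at 0.05. The log2 scale understates changes of low genes. Counting intervals are exact, at 95%, and cover counting error only. Promoters are from RefSeq and AU-rich counts from GENCODE principal transcripts. The members and gene lists were chosen with earlier results of these data known. Log2 fold changes are printed for tested members that passed or that exceeded 3 SE; of each list, up to 3 called genes or the 2 most abundant are named, as are the 3 protein-coding genes most correlated with each member averaging at least 5 RPKM. Adam17, and the neighbours and receptors of the members, fall outside this rule and were named after their values were seen.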

Additional observations from a re-analysis of the deposited data

How the results depend on the processing

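The count of called members in zfCTT over no_transgene was 2, and it was 0 without the filter on low values, 1 by voom on recovered reads (Ltb at adjusted p = 0.0567) and 0 to 2 with each library left out. Over dCTT it was 2, with 0 without the filter and 0 to 2 with each library left out. Over mSTING it was 0, with 2 among protein-coding genes alone, 1 with the replicate block (Ltb at adjusted p = 0.0314) and 0 to 2 with each library left out. The other 3 comparisons gave 0 called members under all 15 settings, and no direction of Tnf, Ltb or Tnfsf9 in a zfCTT comparison turned under any. For these genes both zfCTT libraries were above all others. Leaving out a library, or changing the pseudocount or the gene set, therefore could not turn a direction. The unchanged direction is a description and nothing is read from it. Pseudocounts and median centring kept the same 2 calls. The Tnf difference over no_transgene ran from 1.99 to 2.74 (adjusted p = 0.00425 to 0.164) and that of Ltb from 1.78 to 3.74 (0.00496 to 0.178). The ends of the Ltb range are on unlike scales, as 1.78 is on log2(RPKM + 1) and 3.74 is by voom. A pseudocount of 0.1, which shrinks low values less, gave 3.47 for Ltb. The library left out kept the gene set of the full fit, and its lone partner was assumed to vary like the other groups. Same-numbered libraries deviated together in 4 of 6 pairs of groups, all 3 with zfCTT among them (r = 0.264 to 0.762) and not in 2 (0.0318 and 0.0364), so the numbers were not taken as pairs. With 1 to 14 reads per library outside zfCTT, Lta differences smaller than its counting intervals were not detectable.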
